A study of Homo sapiens with 6 samples.

Results

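Oxygen limitation changes the transcription of genes that a cell already uses and also brings reads to genes that it otherwise hardly transcribes. In normal oxygen, prolyl hydroxylases mark the alpha subunits of the hypoxia-inducible factors (HIF) for destruction. In low oxygen these subunits persist, pair with ARNT and bind DNA at sites built around the letters ACGTG or GCGTG. The genes described here are 83 protein-coding genes that were near zero in normoxia and were counted in every hypoxia library of an oral squamous cell carcinoma line. They were 0.381% of the 21776 genes of the deposited table and 0.528% of its 15717 protein-coding genes.

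The 83 genes were chosen on the read counts themselves. Each had 3 or fewer reads in each of 3 normoxia libraries and 10 or more reads in each of 3 hypoxia libraries. Genes of 20 symbol families (KRT, COL, ITG, LAM, CDH, PCDH, DSG, DSC, KCN, SLC, MMP, ADAM, WNT, FZD, CLDN, GJ, RAB, SPRR, MT1 and KLK) were not taken. Without that exclusion 4 more genes met the limits, namely KCNN1, SLC15A1, SLC38A5 and SLC4A9. Because both conditions were used in the choice, the difference between hypoxia and normoxia is a description for these genes and no test of it is given.

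RNA was measured in SCC25 cells, a human oral squamous cell carcinoma line of wild-type genotype per the labels, after 12 h in normoxia or 12 h in hypoxia. The hypoxic cells were kept in a tri-gas incubator at 1% O2 and 5% CO2 balanced with nitrogen, and the normoxic cells in air with 5% CO2. All 6 libraries came from this 1 line, and nothing in the labels says whether the 3 libraries of a condition came from separate cultures, so the spread between them may be technical. The libraries held 30186813, 36076088 and 32272716 counted reads in hypoxia and 37278703, 29637189 and 29981208 in normoxia. The deepest library and the 2 shallowest were normoxic.

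The line was checked against cell type markers. Of 10 squamous epithelial markers all were in the table, their summed CPM (read counts scaled to the depth of the library) were 1517, 1508 and 1544 in hypoxia and 1204, 1205 and 1268 in normoxia, and the most abundant by CPM was CDH1, the epithelial cadherin. TP63, the transcription factor that marks squamous cells, was at 68.2 CPM in hypoxia and 62.7 CPM in normoxia. KRT14, a defining basal keratin, was absent apart from 1 read in 1 normoxia library. Of 9 tested squamous markers 4 were called higher in hypoxia (KRT17, PKP1, PERP and CDH1), 4 lower (KRT5, KRT6A, SFN and EPCAM) and TP63 did not pass the test, where 39.2% of all tested genes were called higher and 38.5% lower. KRT6A, a keratin of stressed and wounded epithelium, was lower in hypoxia (log2 fold change -4.12, SE 0.25, edgeR adjusted p = 7.5e-11).

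The wording silent and on needs to be read with the counts. Only 5 of the 83 genes had no read in any normoxia library, and the other 78 had between 1 and 7 reads over the 3 libraries together. At 0 reads stood 33, 28 and 27 of the 83 in the individual normoxia libraries. In hypoxia 60 of the 83 stayed below a mean of 1 CPM, and the median was 0.658 CPM, against 26.1 CPM for the 12419 coding genes with 10 or more reads in every hypoxia library. Per length, the median was 0.195 FPKM, the fragment count scaled by gene length and depth, against 6.06 FPKM for those coding genes, and only 2 of the 83 reached 1 FPKM. The median of the 83 lay at percentile 2.18 of those coding genes in CPM. The genes are thus called near zero in normoxia and counted at low levels in hypoxia.

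Summed over the 83 genes, the reads came to 2101, 3038 and 2503 in hypoxia and 83, 83 and 90 in normoxia. On the CPM scale these sums were 68.8, 81.6 and 77.1 against 2.23, 2.90 and 3.04. The 3 genes with the highest CPM held 13.4% of the hypoxia sum and the 25 highest held 54.9%. The hypoxia sum was spread over many genes of low count, while a gap between the conditions in each gene followed from the limits of the choice. Among the 3 hypoxia libraries the median coefficient of variation of a gene was 21.4%, and in 13 genes the highest library had at least 2 times the CPM of the lowest. Hypoxia replicate 1 was the highest library for 16 genes, replicate 2 for 34 and replicate 3 for 33.

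**Figure D1:**
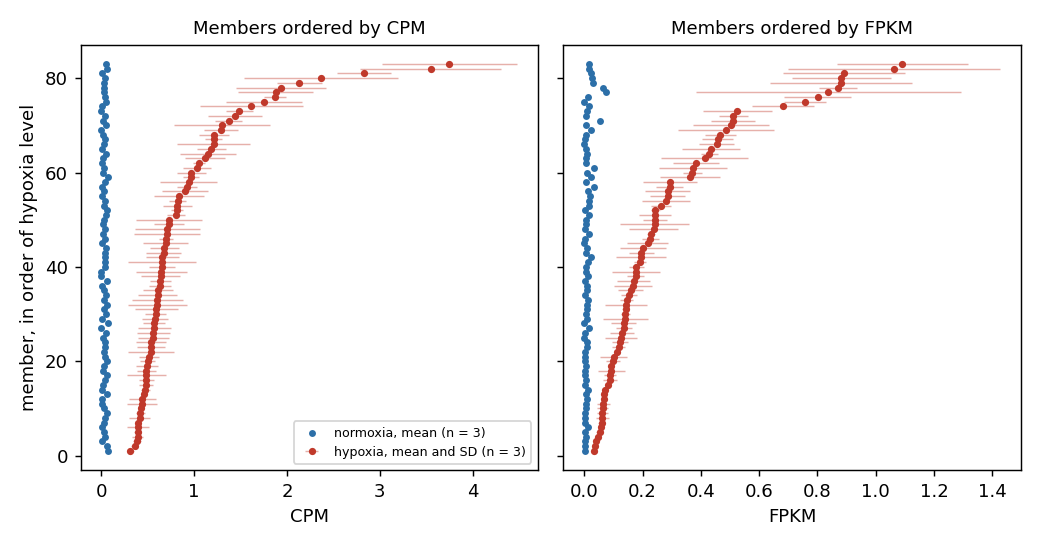
Mean level of each of the 83 genes in CPM (left) and in FPKM (right), ordered by its hypoxia level on the y axis; red points are means of 3 hypoxia libraries with SD bars and blue points are means of 3 normoxia libraries. Most red points lie under 1 CPM, and the tail to the upper right is short: the highest gene is at 3.75 CPM and 1.09 FPKM.

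The limits of the choice cut through a continuum. Just inside the hypoxia limit, 8 genes had a lowest library of 10 reads, among them BCL2L14 with 10, 37 and 28 reads, CAMK2B with 27, 35 and 10 and SMIM10L2A with 10, 30 and 26. Just outside it, 13 genes had a lowest library of 9 reads, among them LOC101060341 with 9, 39 and 21, ZNF763 with 27, 22 and 9 and STON1 with 9, 28 and 16. Just inside the normoxia limit, 24 genes had a highest library of 3 reads, and these included PNCK, JAK3 and KISS1R. Just outside it, 28 genes had a highest library of 4 reads, led by TNS1 with 47, 104 and 83 reads in hypoxia and 4, 1 and 2 in normoxia, PCP2 with 35, 57 and 79 against 1, 4 and 2, and NUPR1 with 48, 64 and 31 against 4, 1 and 4. Genes on both sides of a limit had like counts.

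Leaving out 1 library at a time describes how far the choice depended on each library. When hypoxia replicate 1 was left out, the other 5 libraries chose 119 genes, of which 69.7% had 10 or more reads in replicate 1 and 7 had 3 or fewer. The corresponding shares were 89.2% of 93 genes for hypoxia replicate 2 and 74.1% of 112 genes for hypoxia replicate 3. For normoxia replicates 1, 2 and 3, the shares with 3 or fewer reads in the library left out were 69.2% of 120, 84.7% of 98 and 62.4% of 133 genes. In normoxia replicate 3, 15 of the 133 genes had 10 or more reads. Most genes so chosen met the limit in the unused library, and a minority did not. The spread between libraries of a condition may be technical, so these shares are a description and no test of the placement.

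Coding genes of low count in general stood higher in hypoxia. Of 14255 genes of all kinds that passed a filter on low counts, 5595 (39.2%) were called higher in hypoxia and 5495 (38.5%) lower at an adjusted p of 0.05. When coding genes were grouped by mean CPM over all 6 libraries, the median log2 ratio of hypoxia to normoxia was 1.01 for 786 genes between 0.1 and 0.3 CPM and 1.16 for 834 genes between 0.3 and 1 CPM. It was 0.66 for 903 genes between 1 and 3 CPM, and 0.27 for the 2390 genes at or below 0.1 CPM, none of which was among the 83. Between 10 and 30 CPM it was -0.13, and over 100 CPM it was -0.19. In the group between 0.3 and 1 CPM, 77.9% of the genes had a higher mean in hypoxia, against 39.1% in the group over 100 CPM. Without the 83 genes, the medians were 0.96, 1.04 and 0.65 for the groups between 0.1 and 0.3, 0.3 and 1, and 1 and 3 CPM. Of the 83 genes, 27 lay between 0.1 and 0.3 CPM, 51 between 0.3 and 1 CPM and 5 between 1 and 3 CPM.

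**Figure D2:**
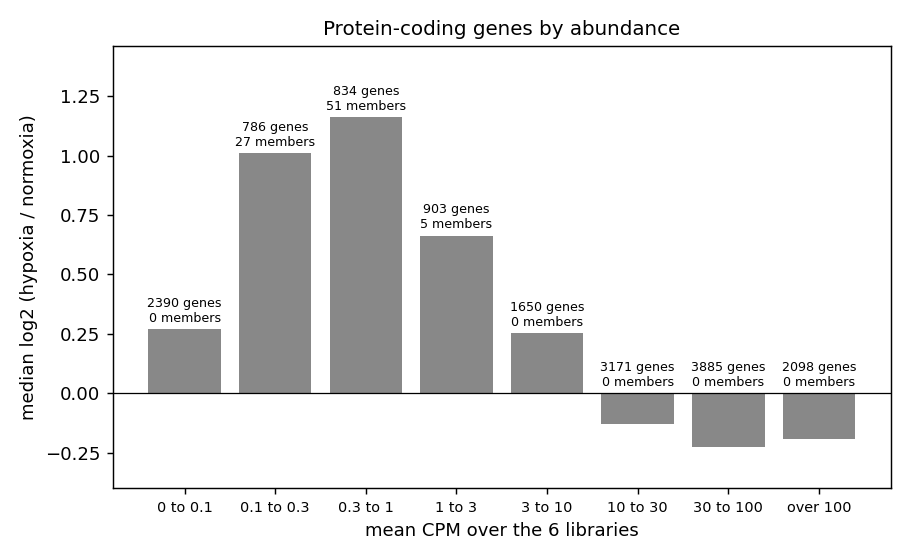
Median log2 ratio of hypoxia to normoxia (y axis) for protein-coding genes grouped by their mean CPM over the 6 libraries (x axis), with the number of genes and of the 83 genes above each bar. The bars are above 0 up to 10 CPM and below 0 beyond it, and all 83 genes lie in groups whose median is 0.66 or more.

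The same asymmetry appeared when the limits were turned around. Of 2398 coding genes with 3 or fewer reads in every normoxia library, 87 (3.63%) had 10 or more in every hypoxia library and 1546 (64.5%) had 3 or fewer there too. Of 1756 coding genes with 3 or fewer reads in every hypoxia library, 6 (0.342%) had 10 or more in every normoxia library. Coding genes with 10 or more reads numbered 12667, 12834 and 12722 in the hypoxia libraries and 12219, 11963 and 12115 in the normoxia libraries. More coding genes were thus detected in each hypoxia library than in any normoxia library. In RNA of a whole culture, a few cells with much of a transcript and many cells with little of it cannot be told apart, and likewise fewer cells of a kind and less RNA per cell.

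Kinases and their regulators gave 9 of the genes and included the 2 most abundant ones by CPM. By FPKM PNCK stayed first and JAK3 held place 11. PNCK, a kinase of the calcium and calmodulin dependent family, had 97, 170 and 114 reads in hypoxia and 2, 0 and 3 in normoxia. Its level was 3.75 ± 0.73 CPM (SD, n = 3) and 1.09 FPKM in hypoxia, and the ratio of hypoxia to normoxia was 72.6 with an exact 95% counting interval of 30.8 to 225. JAK3, the Janus kinase that serves the cytokine receptors with the common gamma chain, had 103, 163 and 94 reads against 2, 3 and 1, a ratio of 57.1 (26.0 to 157). In both genes replicate 2 was the highest hypoxia library. These intervals, here and below, cover counting error only. Because the genes were chosen on the same counts, no interval is a test of a difference between the conditions.

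EPHA3, a receptor tyrosine kinase for ephrins, had 24, 48 and 59 reads in hypoxia and 2, 1 and 2 in normoxia. PRKAG3, the gamma subunit of the energy sensor AMPK known from skeletal muscle, had 32, 43 and 44 reads against 0, 0 and 1. SRMS, a non-receptor tyrosine kinase of the BRK family, had 25, 52 and 40 against 2, 2 and 1. In EPHA3 and SRMS the lowest hypoxia library, replicate 1, had less than the other two. IP6K3, an inositol hexakisphosphate kinase, had 14, 22 and 28 reads and none in normoxia, at least 20.3-fold higher against a floor of 3 reads over the normoxia group. Such a floor, here and below, stands in for the normoxia count and leaves out the counting error of the hypoxia reads, with which the exact 95% lower limit of the ratio for IP6K3 was 16.0. CAMK2B, ANKK1 and GRK3 made up the group, with hypoxia levels of 0.711, 0.411 and 0.380 CPM.

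The other genes of these kinase families were already counted in normoxia in most cases and did not share a direction. JAK1 was higher in hypoxia by 0.27 on the log2 scale (SE 0.05, edgeR adjusted p = 0.00013), while JAK2 and TYK2 did not pass the test. Per length, JAK3 in hypoxia (0.525 FPKM) came close to JAK2 (0.566 FPKM) and stayed far under JAK1 (23.4 FPKM). Of 5 tested AMPK subunits outside the 83 genes, 1 (PRKAB2) was higher, 3 (PRKAA1, PRKAB1 and PRKAG2) were lower and PRKAG1 did not pass the test. The BRK relatives PTK6 and FRK were both higher, with log2 fold changes of 2.00 (SE 0.07) and 1.50 (SE 0.10). Of 4 tested EphA receptors, EPHA2 was lower and the other three did not pass. Of all tested genes, 39.2% were called higher and 38.5% lower. CAMK1, the tested relative of PNCK, was lower (log2 fold change -0.78).

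**Figure D3:**
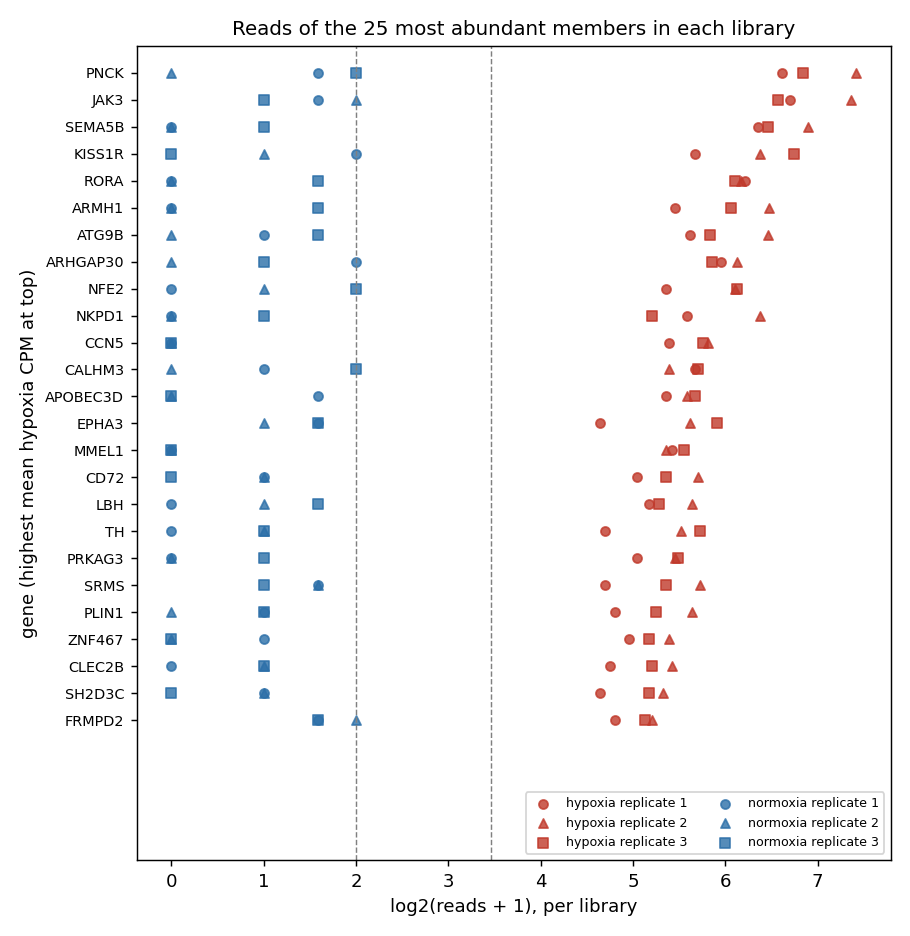
Reads of the 25 genes with the highest mean hypoxia CPM, on a log2(reads + 1) x axis, with 1 gene per line and 1 point per library (red hypoxia, blue normoxia, marker shape by replicate); the dashed lines mark the limits of 3 and 10 reads that chose the genes. The blue points lie at or left of the first line and the red points right of the second by construction, and replicate 1 (circle) is often the lowest red point, as in KISS1R and EPHA3.

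Receptors, ligands and other surface proteins gave 9 genes. SEMA5B, a transmembrane semaphorin of axon guidance, had 81, 118 and 87 reads in hypoxia and 0, 0 and 1 in normoxia, which gave the highest ratio of the 78 genes with any normoxia read, 272, with a counting interval of 48.5 to 10793. KISS1R, the receptor of the peptide kisspeptin, had 50, 82 and 106 reads against 3, 1 and 0 and a hypoxia level of 1.06 FPKM. CCN5, a secreted matricellular protein, had 41, 55 and 53 reads and none in normoxia, at least 47.3-fold higher against the floor (exact lower limit 38.0). The single normoxia read of SEMA5B sets the width of its interval, so the order of such ratios among genes carries little precision.

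CD72, an inhibitory co-receptor of B cells, had 32, 51 and 40 reads against 1, 1 and 0. CLEC2B, a C-type lectin recognised by natural killer cells, had 26, 42 and 36 against 0, 1 and 1. WFIKKN1, a secreted protein with protease inhibitor domains, had 28, 47 and 21 against 1, 2 and 1. In these genes too replicate 2 was the highest. NPR1, the receptor for atrial natriuretic peptide, GPC2, a cell surface proteoglycan, and MUC3A, a membrane mucin, stood between 0.393 and 0.570 CPM in hypoxia.

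Ligands and relatives gave a mixed picture. KISS1, the gene of the KISS1R ligand, had 11, 3 and 23 reads in hypoxia and 0, 2 and 1 in normoxia and was too low to be tested. SEMA5A, the other class 5 semaphorin, had at most 2 reads in a hypoxia library and at most 6 in a normoxia library. In the CCN family CCN4 was higher (37, 46 and 66 reads against 0, 0 and 5; log2 fold change 4.72, SE 0.68, edgeR adjusted p = 5.7e-06), whereas CCN1 and CCN2 were lower by log2 fold changes of -2.04 and -2.26, and CCN3 did not pass the test. CCN4 missed the limits through its 5 reads in normoxia replicate 3. It passed the low-count filter through its hypoxia reads alone, so it could hardly have been called lower.

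Transcription factors and nucleic acid binding proteins gave 13 genes. RORA, a nuclear receptor of the circadian clock, had 73, 71 and 68 reads in hypoxia and 0, 0 and 2 in normoxia. NFE2, the subunit of the factor NF-E2 that drives globin genes in erythroid cells, had 40, 68 and 69 against 0, 1 and 3. APOBEC3D, a cytidine deaminase of antiviral defence, had 40, 47 and 50 against 2, 0 and 0. The read counts of RORA were nearly equal across hypoxia libraries. Its standing depended on the scale, with the fifth place among the 83 genes by CPM and place 69 by FPKM (0.083 FPKM).

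LBH, a transcription cofactor, had 35, 49 and 38 reads in hypoxia and 0, 1 and 2 in normoxia. ZNF467, a zinc finger protein, had 30, 41 and 35 against 1, 0 and 0. GLI1, the effector and target of hedgehog signalling, had 22, 19 and 22 against 0, 2 and 3. All 3 genes had a coefficient of variation below the median of 21.4% among hypoxia libraries. The others, at 0.359 to 0.692 CPM, were YBX2, ZNF404, TCIM, ZBTB10, POU2F3, the linker histone H1-3 and PABPC4L.

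Among the relatives of GLI1, 4 of 5 tested hedgehog genes were higher in hypoxia and none lower, where 39.2% of all tested genes were called higher and 38.5% lower. PTCH1, the hedgehog receptor and itself a target of the pathway, was higher by 2.12 on the log2 scale (SE 0.14, edgeR adjusted p = 1.9e-10). SHH, the ligand, was higher by 2.31 with a wide error (SE 0.73) and 10, 15 and 29 reads against 2, 8 and 0. SHH passed the low-count filter through its hypoxia reads alone and could hardly have been called lower, so its call adds no support to the count of 4. SMO and SUFU were higher by 0.28 and 0.27, and GLI3 did not pass the test. Of 7 tested relatives and partners of NFE2, 3 were higher (BACH1 by 2.32, MAFF by 0.69 and NFE2L1 by 0.16). Another 3 were lower (NFE2L2, NFE2L3 and MAFG, by log2 fold changes of -0.59, -0.82 and -0.72), and MAFK did not pass the test. Among the APOBEC3 deaminases, APOBEC3F and APOBEC3G were higher by 1.93 and 1.47, and APOBEC3B, APOBEC3C and APOBEC3H did not pass the test.

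Metabolic enzymes and lipid storage proteins gave 10 genes. TH, tyrosine hydroxylase, the rate-limiting enzyme of catecholamine synthesis, had 25, 45 and 52 reads in hypoxia and 0, 1 and 1 in normoxia. PLIN1, the perilipin that coats lipid droplets of adipocytes, had 27, 49 and 37 against 1, 0 and 1. LPL, lipoprotein lipase, had 26, 15 and 17 against 2, 1 and 0. TH and PLIN1 were lowest in hypoxia replicate 1 and LPL was highest there. CYP4F12, LDHD (the D-lactate dehydrogenase), ABAT (GABA transaminase), ENTPD1 (the ectonucleotidase CD39), ALDH8A1, TLCD3B and GAL3ST1 stood between 0.312 and 0.833 CPM, and GAL3ST1 had the lowest ratio of all, 4.22 (1.82 to 11.3), from 10, 10 and 11 reads against 2, 2 and 3.

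All 4 other perilipins were called higher, as were 39.2% of all tested genes, with PLIN2 at 2.65, PLIN3 at 0.33, PLIN4 at 0.86 and PLIN5 at 2.82 on the log2 scale. PLIN5 (38, 60 and 54 reads against 7, 6 and 7) passed the low-count filter through hypoxia alone and could hardly have been called lower. Per length, PLIN2 was at 417 FPKM in hypoxia and PLIN1 at 0.385 FPKM. Of the other genes of catecholamine synthesis only GCH1, which makes the cofactor of TH, was tested, and it was lower (log2 fold change -0.87, SE 0.11). DDC had 0, 8 and 0 reads in hypoxia against 0, 1 and 0, and PNMT had 7, 0 and 1 against 1, 1 and 0. LDHA was higher by 0.47 and LDHB lower by a log2 fold change of -0.50. LMF1, which matures lipases, was higher by 1.78, and PNPLA2, the adipose triglyceride lipase, by 0.94, while LIPG and LIPE did not pass the test.

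**Figure D4:**
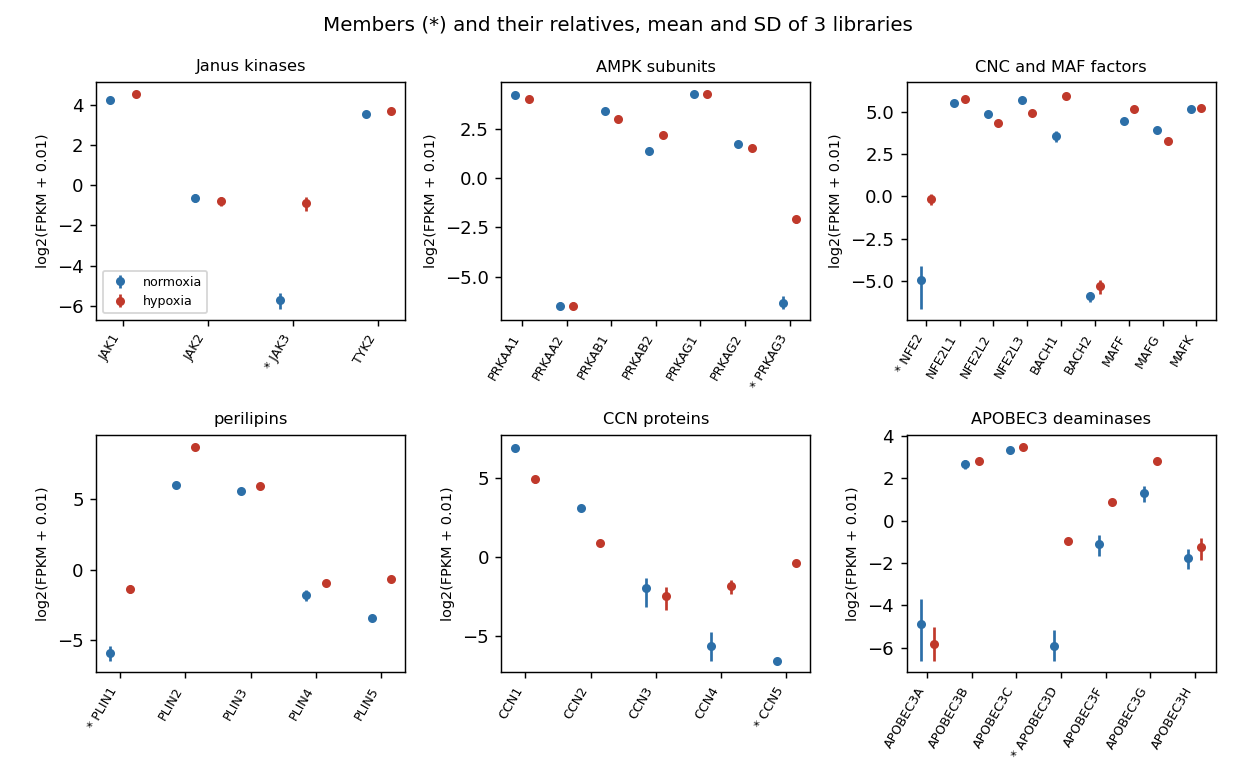
Levels of 6 gene families on a log2(FPKM + 0.01) y axis, with means of 3 libraries and SD bars in normoxia (blue) and hypoxia (red); genes marked with a star belong to the 83. In normoxia the starred gene is the lowest in 4 of the 6 families (PRKAA2 and BACH2 lie lower in the others), and in hypoxia JAK3 meets JAK2 while PLIN1 stays far below PLIN2 (0.385 against 417 FPKM).

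Channels and transporters gave 7 genes. CALHM3, which forms the ATP-releasing channel of taste cells with CALHM1, had 50, 41 and 51 reads in hypoxia and 1, 0 and 3 in normoxia. TRPV3, a warmth-activated cation channel of keratinocytes, had 22, 33 and 28 against 3, 1 and 0. Both had a coefficient of variation below the median of 21.4% in hypoxia. GLRA3 (a glycine receptor subunit), PANX3 (a pannexin), P2RX6 (an ATP-gated channel subunit) and ABCC6 (an efflux transporter of liver) stood between 0.419 and 0.605 CPM. The relatives TRPV4, TRPV1 and CALHM2 were called higher, by 3.26, 1.32 and 1.20 on the log2 scale, PANX2 was lower and PANX1 did not pass the test.

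Proteases gave 4 genes. MMEL1, a metallopeptidase related to neprilysin, had 42, 40 and 46 reads in hypoxia and none in normoxia, at least 40.6-fold higher against the floor (exact lower limit 32.6). HPN, the transmembrane serine protease hepsin, had 17, 28 and 13 and none in normoxia, at least 18.4-fold higher against the floor (exact lower limit 14.5). CAPN3, the calpain of skeletal muscle, had 22, 28 and 20 against 1, 1 and 2, and NAPSA, the aspartic protease napsin A, 13, 15 and 15 against 1, 2 and 0. Of 7 tested calpains outside the 83 genes, 3 were higher (CAPN12 by 3.67, CAPN5 by 2.16 and CAPN1 by 0.18), 2 were lower and 2 did not pass the test, where 39.2% of all tested genes were called higher and 38.5% lower.

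Adaptors and regulators of small GTPases gave 6 genes, and genes of autophagy, cell death and the cytoskeleton another 6. ARHGAP30, a GTPase activating protein, had 61, 69 and 57 reads in hypoxia and 3, 0 and 1 in normoxia. ATG9B, a lipid scramblase of autophagosome formation, had 48, 87 and 56 against 1, 0 and 2, and its relative ATG9A was called higher by 0.49 on the log2 scale. SH2D3C, an adaptor of integrin and receptor signalling, had 24, 39 and 35 against 1, 1 and 0. ARHGAP30 was the more even of these genes and ATG9B peaked in replicate 2. PLCL1, HPCAL4, TBC1D3G, BANK1 (a scaffold of B cells), MYO15A, BCL2L14, CYS1 and RFTN2 lay between 0.442 and 0.818 CPM.

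The remaining 19 genes have no single role in common. ARMH1 had 43, 88 and 66 reads in hypoxia and 0, 0 and 2 in normoxia. NKPD1 had 47, 82 and 36 against 0, 0 and 1. FRMPD2, a scaffold with PDZ domains, had 27, 36 and 34 against 2, 3 and 2. The coefficient of variation of NKPD1 in hypoxia was above the median of 21.4% and that of FRMPD2 below it. Short genes stood out on the FPKM scale, where LOC101059948 was at 0.880, FAM167B at 0.870 and CCDC153 at 0.837 FPKM, next to NFE2 at 0.891, CALHM3 at 0.882, CD72 at 0.801, CCN5 at 0.758 and CLEC2B at 0.683 FPKM.

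CCDC was the single symbol family with 3 genes: CCDC153 had 17, 35 and 10 reads in hypoxia and 1, 3 and 1 in normoxia, CCDC187 had 15, 19 and 24 against 0, 1 and 0, and CCDC197 had 32, 31 and 29 against 0, 0 and 1. The symbol names a coiled-coil structure and no shared function. C2CD4C, RNF112, ANKDD1B, SMIM10L2A, LRRC36, VWA5B2, PPP1R32, TMEM178A, IQCM, RUNDC3A and LOC107986755 completed the set at 0.435 to 0.803 CPM. SMIM10L2A had none in normoxia, at least 20.9-fold higher against the floor (exact lower limit 16.6). Over the 78 genes with a normoxia read the median ratio was 24.3.

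None of the 83 genes, which were 0.528% of the coding genes, was on a list of 33 established HIF target genes. The choice largely fixed this. On that list 24 genes had 10 or more reads in every normoxia library, and only 4 kept to the normoxia limit of 3 or fewer. The count says nothing of HIF targets outside the list. Of that list 32 were in the table, 25 were tested and all 25 were called higher in hypoxia, with a median log2 fold change of 2.71, where 39.2% of all tested genes were called higher. Among the most abundant by CPM were NDRG1 (a stress response protein), LDHA, VEGFA (the angiogenic ligand), PGK1 (a glycolytic kinase) and STC2 (a secreted glycoprotein). The 7 that were not tested, CA12, CXCR4, EPO, FLT1, KDR, TEK and TF, had at most 10 reads in any library. Among the tested ones MB came nearest to the normoxia limit, with 10, 6 and 6 reads. By its highest normoxia library ANKRD37 came next with 23, 16 and 19. By mean normoxia CPM it was PPFIA4, with 11, 10 and 31 reads (0.564 against 0.606 CPM for ANKRD37). Of 12 tested genes of the HIF pathway itself 9 were higher, EGLN3 the most abundant, and 2 lower, HIF1A (log2 fold change -2.26) and CREBBP (-0.51), while VHL did not pass the test.

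Several of the 83 genes are best known from blood, nerve, muscle, fat or germ cells, and markers of those cells were read alongside. Of 10 leukocyte markers 8 were in the table, with sums of 40.0, 44.5 and 45.9 CPM in hypoxia and 35.1, 33.7 and 37.2 CPM in normoxia, most of it CD68. PTPRC, CD3E, CD3D and LYZ were at 2 reads or fewer in every library, while CD14 and CSF1R were called higher. None of 6 erythroid markers was in the table. Of 11 muscle markers 6 were in the table, with sums of 68.0, 71.2 and 76.0 against 15.8, 12.9 and 22.4 CPM. TNNT1 was the most abundant, TNNT1 and TNNT3 were called higher, and DES, MYH1 and ACTC1 were at 0 in hypoxia.

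Of 8 neuronal markers 3 were in the table, with sums of 11.2, 11.2 and 9.67 against 6.07, 4.54 and 6.45 CPM, nearly all from SYT1, which was called higher. The 8 fibroblast markers summed to 22.1, 18.7 and 17.4 against 4.03, 3.18 and 5.64 CPM, nearly all from COL1A1, which was called higher, with COL3A1, DCN and THY1 at 4 reads or fewer in every library. LUM had 27, 9 and 8 reads in hypoxia against 1, 1 and 2 and was too low to be tested, and PDGFRB had 24, 19 and 20 against 13, 7 and 11 and did not pass the test. Of 8 endothelial markers 5 were in the table and summed to 1.70, 1.32 and 1.60 against 0.295, 0.314 and 0.743 CPM, CDH5 being the most abundant and called higher, with VWF at 10, 9 and 4 reads against none. Of 9 germ cell markers 3 were in the table, led by TEX14, at sums of 0.229, 0.215 and 0.462 against 0.0269, 0.140 and 0.270 CPM.

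Of 6 hepatocyte markers 4 were in the table and summed to 336, 341 and 355 against 301, 304 and 337 CPM, nearly all from SERPINA1, which was called higher, while ALB and APOB were at 2 reads or fewer. An adipocyte list of 11, added later, had 8 in the table, of which PLIN1 and LPL belong to the 83 genes. It summed to 59.2, 55.7 and 52.9 against 50.0, 48.3 and 52.4 CPM, PPARG was the most abundant and lower in hypoxia (log2 fold change -0.56), PLIN4 and PNPLA3 were higher, and LEP had no read in hypoxia. Without PLIN1 and LPL, which were chosen for their hypoxia counts, the adipocyte sums were 57.5, 54.0 and 51.3 against 49.9, 48.2 and 52.3 CPM, and the conditions overlapped. Within the leukocyte, muscle and adipocyte lists, some markers were at or near 0 in hypoxia (PTPRC and CD3E, DES and MYH1, LEP) and others were called higher (CD14 and CSF1R, TNNT1 and TNNT3, PLIN4 and PNPLA3). The squamous, leukocyte, muscle, neuronal, fibroblast and endothelial sums were higher in each hypoxia library than in any normoxia library, those of the germ cell and hepatocyte lists overlapped, and the part of these markers in the result was not tested.

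Gene Ontology terms in the deposited annotation were available for 76 of the 83 genes. Terms of the plasma membrane were carried by 26 (34.2%), against 20.6% of coding genes with 10 or more reads in every library and 34.4% of coding genes with 3 or fewer in every library. Ion channel activity was carried by 6 (7.89%), against 1.74% and 5.84%. Nuclear terms were carried by 27.6%, against 36.1% and 19.5%, and muscle terms by 13.2%, against 6.00% and 8.25%. The term G protein-coupled receptor activity was carried by 0 of the 76, against 0.554% and 4.33%, although KISS1R carries the term for peptide receptors of that class. The shares for plasma membrane and ion channel terms lay nearer to those of coding genes near zero throughout, and the share for G protein-coupled receptor activity nearer to that of coding genes counted throughout. These shares are descriptive.

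The transcripts were close in length to those of coding genes counted throughout and richer in G and C. The median length implied by the FPKM values was 4186 bases, against 4271 bases for coding genes counted throughout and 3418.5 bases for those near zero throughout. The median GC content of the longest GENCODE transcript was 56.4% for the 82 genes found there, against 48.2% for coding genes counted throughout and 50.7% for those near zero throughout. The median number of exons was 9.5, against 8 and 6.

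In RefSeq gene order, 82 of the genes could be placed, which gave 110 pairs of a gene and a tested adjacent gene outside the 83. MARS2 lay next to both RFTN2 and PLCL1 and was counted in both pairs. In 54 pairs (49.1%) the adjacent gene was called higher in hypoxia and in 35 (31.8%) lower, beside 39.2% and 38.5% of all tested genes. For coding genes counted throughout, 37.7% of tested neighbours were higher and 40.4% lower, and for coding genes near zero throughout the shares were 37.5% and 40.3%. A higher neighbour stood next to 47 (57.3%) of the 82 genes, beside 44.5% of the coding genes counted throughout and 37.7% of those near zero throughout. Some neighbours called higher were themselves near zero in normoxia, such as CYP27A1 (0.138 CPM) and GAL3ST4 (0.184 CPM). Such genes passed the low-count filter through hypoxia alone and could hardly have been called lower. These shares are therefore descriptive, and the part of the filter in them was not tested.

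Among the adjacent genes called higher that had most reads were SLC6A8 next to PNCK (log2 fold change 2.61, SE 0.07), ABCC1 next to ABCC6 (0.19) and FXYD3 next to HPN (1.51). They were followed by CBL next to CCDC153, TPD52 next to ZBTB10, INTS3 next to NPR1, RAB40C next to WFIKKN1 and PTK6 next to SRMS. SLC6A8, the creatine transporter, stood at 605 ± 61 CPM in hypoxia and 99.4 ± 7.0 CPM in normoxia (SD, n = 3). Its exons share 22 bases with PNCK on the opposite strand in GENCODE.

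Whether reads were counted by strand is not given in the sources used here, so reads of overlapping genes cannot be told apart. Exon bases were shared with another gene of the table by 15 of the 82 genes in GENCODE, for 11 of them with a gene of higher CPM in hypoxia, which was called higher for 5. The longest overlaps were ATG9B with NOS3 (786 bases), RORA with RORA-AS1 (564), CD72 with TESK1 (509), ENTPD1 with ENTPD1-AS1 (454), MMEL1 with PRXL2B (451) and ZNF404 with LOC100505715 (436). PRXL2B was lower in hypoxia and TESK1 higher. The other 67 genes shared no exon base. Counts of genes with near-identical copies, namely TBC1D3G, APOBEC3D, ABCC6, MUC3A, H1-3, LOC101059948, LOC107986755 and SMIM10L2A, are uncertain for the same kind of reason.

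The letters ACGTG, the core of a HIF binding site, were searched on both strands of RefSeq promoter windows of 300 bases, 250 before and 50 after the transcription start. Windows were at hand for 58 of the 83 genes (69.9%), which is too few for a comparison, so that comparison is void. At least 1 match lay in the windows of 14 of the 58 genes (24.1%) and in 16.1% of their 93 windows, beside 21.4% of all 35116 windows. The 5 genes with the most matches are shown. They hold the motif as the palindrome CACGTG, which counts on both strands and is also the E-box bound by other helix-loop-helix factors. In TRPV3, FAM167B, YBX2 and NAPSA the 2 matches were the 2 strands of the same site. MUC3A had as many matches as the last of them and a lower level, and is not shown. The sequences are from RefSeq on GRCh38.p14, written 5′ to 3′ on the strand of the gene, with the matched letters in capitals.
TBC1D3G, chr17:36323662-36323687, plus strand: aagcagcacaCACGTGcacagatgtg
TBC1D3G, chr17:36323702-36323727, plus strand: catgtgcacgCACGTGcacaaacaca
TRPV3, chr17:3557887-3557912, minus strand: tcacacgggcCACGTGggtgggcggg
FAM167B, chr1:32247167-32247192, plus strand: agatgggcatCACGTGgctcccaagt
YBX2, chr17:7294796-7294821, minus strand: cgggggccgtCACGTGgcggccaggg
NAPSA, chr19:50369364-50369389, minus strand: caggagcaacCACGTGacagattccc

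The sites of FAM167B and NAPSA began 45 and 77 bases before the annotated start, that of TRPV3 90 bases before it, and those of YBX2 and TBC1D3G 172 or more bases before it. A match is a description of the letters and not evidence of binding. In hypoxia these 5 genes stood between 0.430 CPM (NAPSA) and 0.823 CPM (TRPV3), and none was among the 25 most abundant by CPM. By FPKM, FAM167B held place 6 and YBX2 place 21 of the 83.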

How the data were processed

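RNA of 6 SCC25 libraries was sequenced by the study from a SMARTER mRNA-Seq preparation. The authors deposited raw read counts per gene and FPKM values, scaled by gene length and depth, with symbols and gene types. The aligner and counter are not given in the sources used here. The submitters' processing notes list the mouse builds GRCm38 and mm10, although the symbols and Entrez numbers are human, so no coordinate was taken from the counts. A legend of the study names SCC9 for this comparison, whereas the labels name SCC25, which is used here.

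The 83 genes, the gene lists and the role groups were chosen with earlier results of these data known. Families of relatives and the adipocyte markers were listed after the genes were known. Named genes were the 25 highest by CPM and 10 by FPKM, those on a list or in a symbol family of 3, 3 on each side of each limit, 10 by adjacent gene and 5 by promoter matches; other genes are named to account for the 83, and a few genes are not reported here. CPM used TMM-adjusted totals.

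Genes outside the 83 were tested in edgeR 4.0.16 (quasi-likelihood test, filterByExpr, Benjamini-Hochberg adjustment at 0.05, all 6 libraries, R 4.3.3). Of the 83 genes 77 passed the filter and stayed in the fit; CAMK2B, CCDC153, BANK1, LOC107986755, MUC3A and GAL3ST1 did not. Some tested genes outside the 83, among them SHH, CCN4, PLIN5 and TNNT3, passed the filter through hypoxia counts alone, so their higher calls are no support. Alternatives used DESeq2 1.42.0, other filters and limits, and libraries left out. Tested on simulated data (14089 genes), the fit found 185 of 195 genes changed 2-fold, with 2.12% false calls. The simulation gave all genes the same variability and changed few of them, whereas 77.8% of tested genes were called in the data. Its rate of false calls therefore need not hold for this comparison. Ratios used effective totals, with exact binomial 95% intervals and a floor of 3 reads. Log2 ratios by abundance used a prior of 0.05 CPM. Depth was 29637189 to 37278703 counted reads per library, at which 10 reads carry wide counting error. RefSeq (GRCh38.p14) gave gene order and promoters, and GENCODE 29 exons and GC content.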

Additional observations from a re-analysis of the deposited data

How the results depend on the processing

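The number of genes depends on its limits. It was 149 with 5 or fewer reads allowed in normoxia, 33 with 20 or more required in hypoxia, and 5 with no normoxia read allowed. Counts scaled to the smallest effective total gave 68 genes, all among the 83, counts drawn down at random gave 85, of which 79 were shared, and no excluded family gave 87. Leaving out 1 library gave 93 to 133 genes, with 133 without normoxia replicate 3. The share of genes with a promoter match was 53.4% with ACGTG or GCGTG against 24.1%, since a second motif was added, and 40.9% of their windows against 48.4% of all windows held either. The percentile of the median level was 3.55 in FPKM against 2.18 in CPM, and 2.09 to 2.58 with 1 hypoxia library left out; the cause was not tested. Genes called higher numbered 4998 to 6134 under the alternatives, with 5464 in the DESeq2 Wald test and 5328 to 5770 with 1 library left out. Same-numbered libraries did not deviate together (correlations 0.02, -0.07 and 0.001), and a fit with the replicate number as a block called 5456 genes higher and all 25 tested HIF targets. The HIF target count was 24 with 10 or more reads required in every library and 25 under every other alternative tried. Low counts limit all of these statements: a gene with 10 reads in a library is hard to tell from one with 9.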

Other observations

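Under the reversed limits, with 3 or fewer reads in each hypoxia library and 10 or more in each normoxia library, 6 coding genes were found. They were GUCY1A1, a subunit of the nitric oxide receptor (3, 1 and 3 reads in hypoxia against 26, 26 and 15), IGFL1 (2, 1 and 1 against 45, 35 and 27), IL12A, a subunit of interleukin 12 (0, 1 and 2 against 26, 22 and 19), MYLK2, a myosin light chain kinase of muscle (3, 2 and 2 against 36, 17 and 11), PLCB2, a phospholipase C (2, 3 and 2 against 40, 28 and 31), and SPRR2E, a cornified envelope protein of an excluded symbol family (0, 1 and 0 against 97, 59 and 23). These genes were chosen by their values and no test is given.

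Under the limits used for the coding genes, 91 of the 6059 non-coding genes (1.50%) qualified, beside 87 of the 15717 coding genes (0.554%) with no family excluded. Under the reversed limits 3 non-coding genes (0.0495%) and the 6 coding genes (0.0382%) qualified. The most abundant by reads were LOC112267991 with 106, 165 and 117 reads in hypoxia and 1, 2 and 3 in normoxia, LINC00898 with 95, 122 and 132 against 2, 0 and 3, and LOC105375772 with 116, 111 and 88 against 0, 1 and 1.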
